A study of Arabidopsis thaliana with 6 samples.

Results

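A set of 94 named nuclear genes of Arabidopsis thaliana read higher in light than in darkness and at about the same level in light whether CO2 was low or normal. The members were chosen from the deposited intensities, after a transform to log2(intensity + 7.3). The mean in light at low CO2 had to exceed the mean in darkness by at least 1, a difference called the light step here. The mean in light at normal CO2 had to lie within 0.5 of the mean in light at low CO2, a difference called the CO2 step. All 4 light arrays had to read above both dark arrays, and the mean intensity in light at low CO2 had to reach 50. Of 22746 probe sets, 180 met these values. A single nuclear gene was named for 94 of them, 3 carried several symbols that all belong to nuclear genes, and 83 had no gene in the annotation used, so their genome of origin is unknown here and they are not described one by one. On the array 13367 probe sets name a single nuclear gene.

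The study measured total RNA of whole rosettes, aged 5 to 6 weeks, from the pgm mutant in the Col-0 background. This line lacks the plastid phosphoglucomutase and makes almost no starch, and every group carries the mutation, so no wild type was measured. The 3 groups were low CO2 with prolonged darkness, low CO2 with light, and normal CO2 with light, each lasting 4 hours, with 2 biological replicates called A and B and 1 single-colour array for each. The labels' protocols speak of 15 rosettes ground, but their count of harvested rosettes differs, so the pool size per extract is unclear. No group combined darkness with normal CO2. Median intensities were 34.6 to 39.55, and the number of arrays limits the precision. Of the fixed marker lists for 8 tissues or cell types, 6 had 0 genes measured under a single name. Genes of a list are called measured here where a probe set names them alone. The others can lie among the 8730 probe sets without a symbol or the 503 with several. The mesophyll marker RCA, Rubisco activase, read 2891.4 to 3326.9 over the 6 arrays, and the guard cell factor FMA read 45 to 74.6.

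Light acts on leaf transcripts through photoreceptors, which sense it directly, and through photosynthesis, which supplies sugars and changes the redox state of the chloroplast. Many nuclear genes raised by light encode chloroplast proteins: antenna subunits, electron carriers, assembly factors and enzymes that protect or repair the photosynthetic membrane. Low CO2 in light leaves the light signal in place but withholds the substrate of carbon fixation.

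All values that chose the members come from these 6 arrays and from all 3 contrasts between the groups. The sizes below are therefore descriptions without a test. In the whole table, 12.3% of probe sets had all 4 light arrays above both dark arrays, against 94 of 94 members by construction. In a limma model over all probe sets, 46 of the 94 members were called higher in the light step, where 0.849% of all probe sets were called higher, and 0 lower, beside 0.193%. With any 1 of the 6 arrays left out, 0 to 14 members were called. In light at normal CO2 against darkness at low CO2, 75 of 94 were called higher, beside 11.3% of all, and 0 lower, beside 9.13%. Without 1 of the normal CO2 arrays the count was 26 (A left out) or 19 (B left out), and without the dark array B it was 43. That second contrast changes CO2 and light together and shares its dark arrays with the first. In the CO2 step limma called 0 of the 94, beside 8.4% of all probe sets called higher and 6.2% called lower. At an unadjusted p under 0.05 there were 2 members higher and 7 lower, where 3778 and 2979 of 22746 probe sets were.

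**Figure D1:**
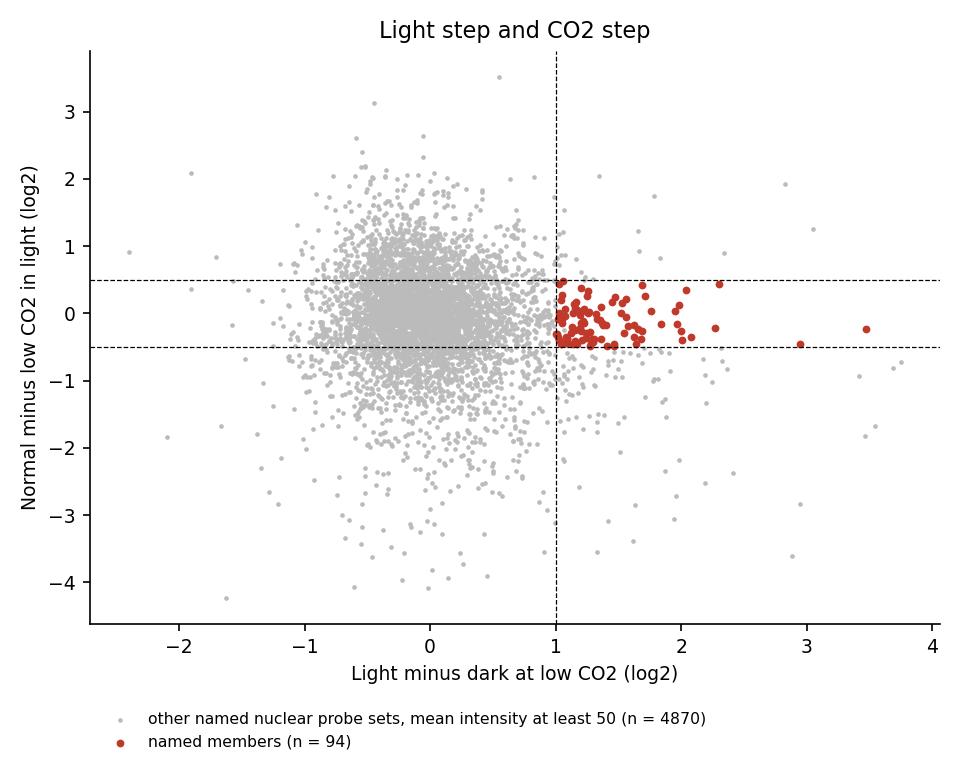
Light step (horizontal axis, log2) and CO2 step (vertical axis, log2) of named nuclear probe sets with a mean intensity of at least 50 in light at low CO2. Red points are the 94 members and grey points the others, and dashed lines mark the limits of 1 and 0.5 that chose the members. Most members lie close to the left limit, with a median light step of 1.27.

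Among 212 named nuclear probe sets with a light step of at least 1 and a mean of at least 50, 96 had a CO2 step within 0.5. The CO2 step was -0.5 or lower in 95 and 0.5 or higher in 21. Among the 96, AT1G57590 and PDF1.2 were left out because light and dark arrays overlapped. PDF1.2, a plant defensin, read 12.2 and 373.6 in the dark replicates A and B and 49.5 and 566.5 in light at low CO2, and 56.5 and 356.5 at normal CO2, so replicates differed more than treatments. AT1G57590 read 33.9 and 10.2, then 211 and 25.2, then 68.2 and 49.2, in the same order of groups.

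The light step of the 94 members ran from 1.01 to 3.47 with a median of 1.27, where the median over all probe sets was 0.02. It reached 2 in 7 members, lay between 1.5 and 2 in 20 and below 1.5 in 67. Mean intensities in darkness ran from 11.7 to 715.45, and the dark mean was under 50 in 39 members and under 20 in 8, where the added 7.3 weighs most on the size of the step. In linear terms the mean in light at low CO2 was 2.02 to 13.95 times that in darkness. The lowest of the 4 light arrays was at least 2 times the higher dark array in 40 members, with a median ratio of 1.80. Rosettes hold many cell types, and fewer cells of a type cannot be told apart from less RNA per cell in these extracts.

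AT4G12830, a protein of the alpha/beta-hydrolase superfamily, had the largest light step of the named members. It read 29.1 and 21 in darkness (replicates A and B), 328.6 and 370.5 in light at low CO2, and 391.6 and 222.9 in light at normal CO2. Both light groups lay far above darkness, and the replicates at normal CO2 stood on either side of those at low CO2. The light step was 3.47 and the CO2 step -0.23. AT5G38510, a rhomboid-related intramembrane serine protease, read 32.4 and 40.2 in darkness, 340 and 316.3 in light at low CO2 and 228.9 and 246.8 at normal CO2. Its light step was 2.95. Its CO2 step of -0.45 is near the limit, and both arrays at normal CO2 lay below both at low CO2.

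MSRB6 (AT4G04840), a methionine sulfoxide reductase that repairs oxidised methionine in proteins, read 41.6 and 40.5 in darkness, 224.3 and 239.4 in light at low CO2 and 351.1 and 284.4 at normal CO2. Here the order of the light groups was the reverse, with both arrays of normal CO2 on top (CO2 step 0.44). CYP71B26 (AT3G26290), a cytochrome P450, read 78.7 and 47.6 in darkness, then 400.2 and 263.8, then 310.8 and 248.3 in light at low and at normal CO2. The light groups overlapped. AT3G48460, a GDSL-type lipase, read 39.2 and 29.4 in darkness, 184.7 and 150.7 in light at low CO2 and 145.7 and 115.8 at normal CO2. Its normal CO2 arrays were again the lower ones.

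AT1G76960, AT2G03310 and AT3G28540 came next, with light steps between 1.996 and 2.04. AT1G76960 had unequal replicates, with 22.6 and 6.4 in darkness, 126.2 and 44.6 in light at low CO2 and 104.8 and 92.2 at normal CO2. Its mean CO2 step of 0.34 joins opposite directions, -0.25 in A and 0.94 in B. Steps by replicate, here and below, pair arrays by letter alone, as A and B share no stated origin across groups. AT2G03310 read 51.5 and 33.8 in darkness, 244.7 and 148.2 in light at low CO2 and 135.4 and 151.5 at normal CO2. Its CO2 step was -0.82 in A and 0.03 in B. AT3G28540 belongs to the AAA ATPases, which use ATP to remodel other proteins. It read 20 and 14.4, then 114.8 and 69.9, then 87 and 62.8, and its light groups overlapped.

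AT1G69523, an S-adenosylmethionine-dependent methyltransferase, was among the most even members. It read 31.8 and 23.4 in darkness, 132.1 and 126.9 in light at low CO2 and 144.2 and 138.7 at normal CO2, with a CO2 step of 0.12 in each replicate. AT5G02940, an ion channel of the plastid envelope, read 79.4 and 66 in darkness, 358.8 and 257.5 in light at low CO2 and 310.6 and 237.7 at normal CO2. The light groups overlapped, and the lowest light array was 2.99 times the higher dark array. AT3G18500 read 65.5 and 55.7 in darkness against 249.8 and 222.5, then 221.2 and 199 in light. Its CO2 steps of -0.17 and -0.16 in A and B were small and alike. AT5G59540, a 2-oxoglutarate-dependent oxygenase, completes the 12 largest, with 99.7 and 79.8 in darkness, 563.9 and 236 in light at low CO2 and 319 and 438.8 at normal CO2. Its replicates crossed, with CO2 steps of -0.81 and 0.87.

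**Figure D2:**
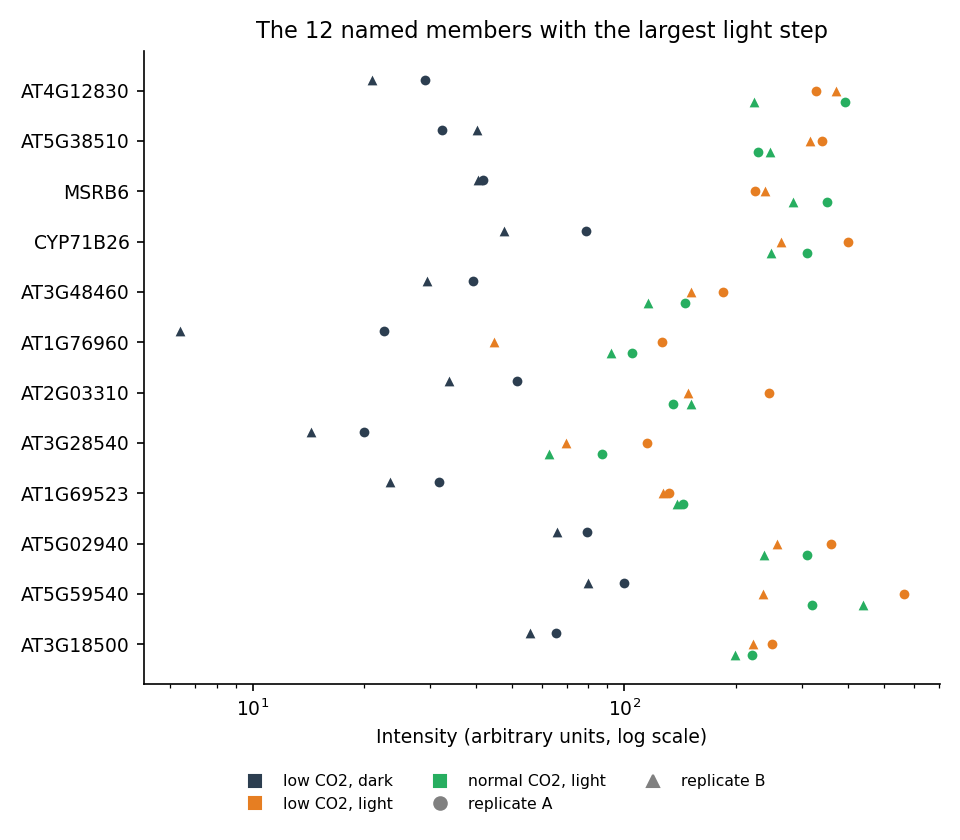
Intensity (log scale, arbitrary units) of the 12 named members with the largest light step. Each point is 1 array, dark blue for darkness, orange for light at low CO2 and green for light at normal CO2, with circles for replicate A and triangles for B. In each gene the 4 light arrays lie to the right of both dark arrays, while orange and green points mix in most genes. AT1G76960 has the lowest dark value, 6.4.

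Members with a known role in photosynthesis were grouped by that role, after their names had been seen. The first group serves the chloroplast NADH dehydrogenase-like (NDH) complex, which returns electrons from photosystem I to the plastoquinone pool. NdhN (AT5G58260), a nuclear-encoded subunit, read 293 and 238.3 in darkness, 724.4 and 696.4 in light at low CO2 and 680.2 and 588.4 at normal CO2. CRR42, needed to assemble the complex, read 25.4 and 20.7 in darkness, 69.8 and 84.1 in light at low CO2 and 95.3 and 89.1 at normal CO2. PIFI, a chloroplast protein needed for the fluorescence rise after illumination that the complex brings about, read 755.2 and 675.7 in darkness, 1634.2 and 1603.6 in light at low CO2, and 1132.6 and 1230.6 at normal CO2. The replicates of all 3 genes stood close together within each group. Cpn60beta4, a chaperonin subunit that folds the NdhH subunit, read 54.3 on both dark arrays, 154.9 and 116.7 in light at low CO2 and 161 and 194.8 at normal CO2.

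The 4 genes, chosen for a light step of at least 1, had 1.40 for NdhN, 1.47 for CRR42, 1.17 for PIFI and 1.20 for Cpn60beta4. Their CO2 steps spread over most of the allowed range, from -0.45 in PIFI to 0.38 in Cpn60beta4. A list of 21 nuclear genes of the NDH complex and its assembly, written with the members known, had 5 genes with a named probe set, 3 of them members. The other two subunits did not pass in either step: NdhL had a light step of 0.48 (limma adjusted p = 0.219) and NdhS one of 0.25 (adjusted p = 0.633). Their CO2 steps were -0.43 (adjusted p = 0.137) and -0.70 (adjusted p = 0.0767). The list median of the light step was 1.17, which the members set. Among the 3 measured plastid chaperonins, Cpn60beta2 was called higher in the CO2 step, by 1.83 (adjusted p = 0.0160), with a light step of 0.42 (adjusted p = 0.578). Cpn60beta3 had a CO2 step of 1.17 that did not pass (adjusted p = 0.0734) and a light step of -0.24 (adjusted p = 0.801).

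The second group holds photosystem II genes and a lipocalin of the thylakoid. LHCB4.3, an isoform of the minor antenna protein CP29, read 352.2 and 376.2 in darkness, 740.7 and 1085.5 in light at low CO2 and 612.1 and 708.1 at normal CO2, with a light step of 1.28 and a CO2 step of -0.44. The normal CO2 arrays lay between darkness and light at low CO2. Its paralogues were not called in the light step. LHCB4.1 read 3894.9 to 4708.7 over all 6 arrays, with a light step of -0.10 (limma adjusted p = 0.843), and LHCB4.2 had -0.27 (adjusted p = 0.470). Their dark means were 4510.1 and 4152.9, where the highest dark mean of any probe set was 4992.8. Whether a rise could still show at such intensities was not tested. The 3 LHCB4 genes were the antenna genes measured under a single name of 16 on the list.

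AT1G77090, a PsbP-like protein of the thylakoid lumen, read 312.9 and 184.7 in darkness, 604.6 and 565.6 in light at low CO2 and 692.9 and 496.1 at normal CO2. LPA66, which edits the plastid psbF transcript for photosystem II, read 24.9 and 21 in darkness, 64.3 and 59.5 in light at low CO2 and 58.4 and 63.2 at normal CO2. Its 4 light values lay between 58.4 and 64.3. CHL (AT3G47860), the chloroplastic lipocalin that limits lipid oxidation in thylakoids, read 165.4 and 155.7 in darkness, 356.5 and 401.3 in light at low CO2 and 269.5 and 369.3 at normal CO2. The light steps of these genes were 1.26, 1.20 and 1.20 in that order. Of the 3 other PsbP-like genes measured, AT2G28605 came nearest, with a light step of 0.92 (adjusted p = 0.0590) and a CO2 step of 0.05. LPA1, LPA2 and PAM68, which also help to assemble photosystem II, had light steps of 0.06, 0.49 and 0.28, none of which passed (adjusted p = 0.920, 0.498 and 0.402).

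**Figure D3:**
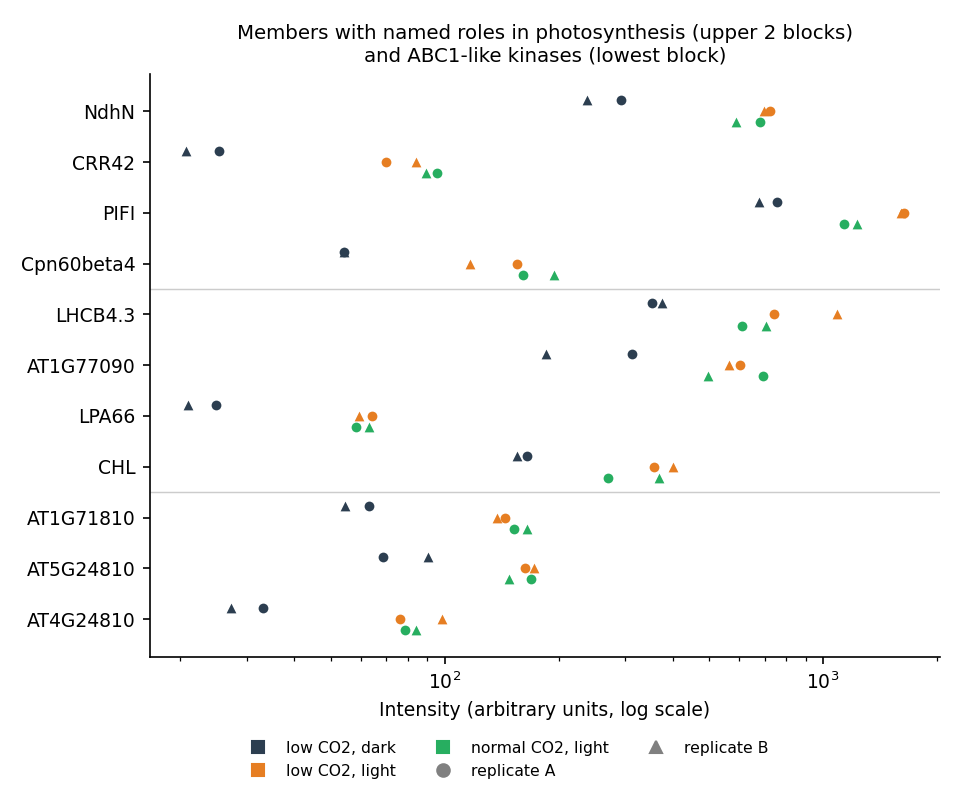
Intensity (log scale, arbitrary units) on each array for members that serve the NDH complex (upper block), photosystem II, with the lipocalin CHL (middle block), and for ABC1-like kinases (lowest block). Colours mark the groups and symbols the replicates, as in the key. Light steps run from 1.02 in AT5G24810 to 1.47 in CRR42, and the dark points lie to the left in each row.

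ABC1-like kinases are atypical kinases, several of which sit in plastoglobules, the lipid droplets of thylakoids, and act on prenylquinone metabolism. AT1G71810 read 63.1 and 54.6 in darkness, 144 and 137.3 in light at low CO2 and 152 and 165 at normal CO2. AT4G24810 read 33.1 and 27.3, then 76.4 and 98.4, then 78.5 and 84.1 in the same order of groups. AT5G24810, measured by a probe set that can share sequence with other genes, read 68.9 and 90.3, then 163 and 171.7, then 169.2 and 147.5. In each of these genes the CO2 step was small, at 0.16, -0.09 and -0.08.

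Of 16 ABC1-like genes listed, again with the members known, 10 were measured. Limma called 2 of the 10 higher in the light step, beside 0.849% of all probe sets. Both are members, chosen for a large light step, so nothing is read from that count. AT5G05200 lay just below the light step limit of 1, with a light step of 0.90 (adjusted p = 0.0501), and its CO2 step of -0.17 was within the limit. AT3G24190 had a like light step of 0.91 (adjusted p = 0.0649) but fell at normal CO2, by 0.86 (adjusted p = 0.0237). AT1G11390, AT5G50330, ATATH8, AT5G24970 and AT1G65950 had light steps of -0.49, -0.68, -0.26, -0.08 and 0.22, none past the threshold. The median of the 10 was 0.56 in the light step and 0.04 in the CO2 step, values that the 3 members enter by the rule.

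**Figure D4:**
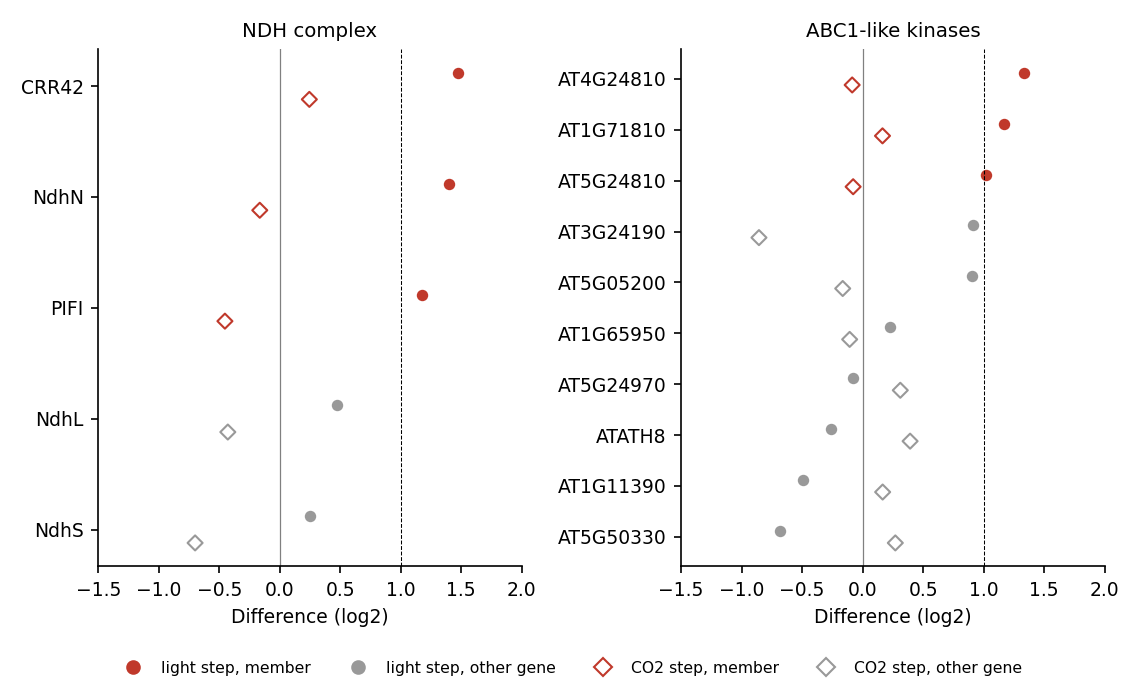
Light step (filled circles) and CO2 step (open diamonds), both as log2 differences on the horizontal axis, for each measured gene of the NDH complex list (left) and of the ABC1-like kinases (right). Red marks members and grey the other genes, and the dashed line is the light step of 1 used to choose members. The light steps of the kinases range from -0.68 to 1.33.

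Families of enzymes made up another share of the members. In all, 46 of the 94 genes were placed in 15 families or roles from general knowledge of their loci, after their names had been seen, and 48 were not placed. For families without a gene list, the genes measured on the array were not counted. Nothing is read from how many members such a family has. The alpha/beta-hydrolases had 4 members, AT4G12830 above, AT3G10840, AT1G74640 and AT1G27480, with light steps of 3.47, 1.71, 1.56 and 1.14. AT3G10840 read 52.4 and 38.3 in darkness, 172.3 and 155.6 in light at low CO2 and 209.8 and 184.7 at normal CO2, so that both normal CO2 arrays were the higher ones. AT1G27480 was less even, with a light step of 0.64 in replicate A and 1.65 in B.

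GDSL lipases, which cleave esters of lipids and other substrates, also had 4 members. Beside AT3G48460 these were AT3G05180, AT2G27360 and AT1G28610, with light steps of 1.24, 1.21 and 1.06. AT1G28610 read 18.9 and 19.6 in darkness, 72 and 31.1 in light at low CO2 and 81.8 and 58.8 at normal CO2. It is the member with the highest CO2 step, 0.48, and its low CO2 light mean of 51.55 is close to the limit of 50. Methyltransferases numbered 4 as well: AT1G69523, AT5G42760, AT4G29590 and AT2G41040, with light steps of 1.98, 1.63, 1.23 and 1.05. AT4G29590 read 91.9 and 98.4 in darkness, 221 and 245 in light at low CO2 and 237.2 and 249.3 at normal CO2, and its light arrays were nearly the same in both groups.

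Proteins with a CBS domain, a module that binds adenosine nucleotides, had 3 members. Their steps were alike, but the rule bounds both steps and 67 of the 94 members had a light step below 1.5. Nothing is read from the likeness. AT4G33700, AT4G14230 and AT3G52950 had light steps of 1.08, 1.08 and 1.06 and CO2 steps of -0.04, 0.07 and -0.04. AT3G52950 read 55.4 and 61.2 in darkness, 136.5 and 121.9 in light at low CO2 and 124.8 and 126.1 at normal CO2. The light step was larger in replicate A than in B in all 3, for example 1.20 against 0.92 in AT3G52950.

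LON-domain proteins share the substrate-binding part of Lon proteases. AT1G75460 read 387.1 and 344.6 in darkness, 1034.8 and 1011.5 in light at low CO2 and 839.8 and 637.8 at normal CO2. AT1G19740 read 303.8 and 221.7, then 533.3 and 527.1, then 370 and 490.7. In both genes the normal CO2 arrays lay below the low CO2 light arrays, with CO2 steps of -0.48 and -0.31, close to the limit in AT1G75460.

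Beside MSRB6, thioredoxin-fold proteins related to peroxiredoxins, which remove peroxides, were represented by AT2G37240 (light step 1.29, CO2 step -0.38) and AT5G65840 (1.05 and -0.08). Of the 4 type B methionine sulfoxide reductases measured, the others had light steps of -0.12 (MSRB3), 0.42 (MSRB5) and 0.39 (MSRB9), with limma adjusted p = 0.818, 0.577 and 0.446. MSRB5 replicates were far apart in light at low CO2, 421.6 and 203.3. AT4G33040, a CC-type glutaredoxin, had a light step of 1.86 in replicate A and 0.63 in B, with 79.6 and 24.5 in light at low CO2.

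Carriers of the membrane included a pair of MATE efflux proteins, AT5G44050 and AT3G26590, the peptide and nitrate transporter family gene AT2G40460 and the amino acid transporter gene AT5G02180. Their light steps were 1.26, 1.27, 1.37 and 1.25. AT5G02180 read 37 and 28.3 in darkness, 84.4 and 90.3 in light at low CO2 and 104 and 107.4 at normal CO2, with replicates close together. The genes parted in the CO2 step, at 0.34 in AT5G44050 and -0.48 in AT3G26590. A second probe set of AT3G26590 did not meet the rule, with a light step of 0.70, a CO2 step of -0.65 and 13.7 and 12.8 at normal CO2, level with its dark values of 13.3 and 11.8. It was the single case of another named probe set for a member gene.

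Small cysteine-rich defence peptides gave 3 members. THI2.2, a thionin, read 33.7 and 35.4 in darkness, 115.1 and 139.8 in light at low CO2 and 90.8 and 100.1 at normal CO2. The thionin gene AT1G66100 read 721.4 and 612.9, then 1692.3 and 1285.8, then 1211.2 and 962.3. Both thionins lay lower at normal than at low CO2 on each array. AT2G43530, of the defensin-like proteinase inhibitors, read 203.4 and 170.1 in darkness, 582.1 and 513.3 in light at low CO2 and 509.8 and 590.1 at normal CO2, with a CO2 step of 0.00. THI2.1, the third thionin measured, read 15.1 to 28.1 over all arrays and had a light step of 0.20 (limma adjusted p = 0.800).

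Beside the ABC1-like kinases above, some kinases, phosphatases and hormone-responsive genes were grouped in pairs after their names had been seen. The receptor-like kinases with leucine-rich repeats AT1G51805 and AT3G46370 had light steps of 1.66 and 1.64, and AT1G51805 read 146.9 and 106.4 in darkness, 477.2 and 354 in light at low CO2 and 369.7 and 332.2 at normal CO2. Its light groups overlapped. AT3G46370 was dim, with 12 and 11.4 in darkness and 32.6 to 64.2 in light, so the size of its change depends on the added 7.3. The auxin-responsive genes AT4G12980 and AT5G35735, of a cytochrome b561 family, had 1.69 and 1.21, and the type 2C phosphatase genes AT3G16560 and AT5G27930 had 1.05 and 1.01. AT2G28720, a histone H2B gene, read 53.4 and 32.9 in darkness, 155.4 and 92.9 in light at low CO2 and 110.6 and 105.7 at normal CO2. AT4G16870 is annotated as a pseudogene, the single member that is not protein-coding, and had a light step of 1.09.

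Among the 6 brightest probe sets of the members were PIFI and AT1G66100, described above. AT1G13930 read 706.4 and 718.1 in darkness, 1980.6 and 2156.6 in light at low CO2 and 2355.5 and 2254.1 at normal CO2. Its replicates were close and normal CO2 was slightly the higher group (CO2 step 0.16). AT5G35970, a nucleoside triphosphate hydrolase, read 450.8 and 496.4, then 1252.3 and 1059.9, then 930.2 and 963.8, and AT1G65230 read 533.8 and 490.7, then 969.5 and 1223.3, then 902.2 and 711.7. In both of these, the normal CO2 arrays lay below the low CO2 light arrays and well above darkness. AT1G75280, an isoflavone reductase-like protein, read 345.9 and 248.8 in darkness, 1570.5 and 536.8 in light at low CO2 and 819.5 and 813.1 at normal CO2. Its replicates at low CO2 in light differed more than the mean differed between the light groups, with CO2 steps of -0.93 in A and 0.59 in B.

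Across the 94 members the CO2 step ran from -0.49 to 0.48 with a median of -0.16. It was under 0.25 in size in 46 members and under 0.1 in 22. It was below 0 in 63 of 94 (67.0%), where 50.5% of the 2837 named nuclear probe sets of at least 50 with a CO2 step within 0.5 were below 0. The arrays of light at low CO2 enter both steps with opposite signs, and a large light step was required, so nothing is read from that excess. With a common median for the arrays the count was 74 and with quantile normalization 67. The arrays of the light groups interleaved in 49 members. Both normal CO2 arrays were above both low CO2 light arrays in 14 members, beside 29.6% of all probe sets, and below them in 31, beside 26.6%. The rule bounds the CO2 step of the members and not that of all probe sets, so nothing is read from these shares either.

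Steps taken within each letter show how the values vary for single genes. They pair arrays by letter alone, and B minus A correlated at 0.0153 across probe sets between the light groups. How another pairing would change the counts below was not tested. The rule bounds the means of these A and B values, and the low CO2 light arrays enter both steps. Counts below without a share over all probe sets beside them are descriptions, and nothing is read from them. Within each letter, the CO2 step had the same sign in 64 of the 94 members, below 0 in both letters in 45 and above 0 in 19. It reached 0.5 in size in replicate A or B in 30 members, among them AT4G16146, with -1.08 in A and 0.11 in B. The light step was at least 1 in both letters in 64 members. It ran from 0.64 to 3.21 in A and from 0.51 to 3.74 in B, with medians of 1.26 and 1.34. It was larger in A than in B in 36 of 94 members, and in 45.2% of all probe sets. AT4G11175, the plastid translation initiation factor IF-1, was among the most even, with 1.04 and 1.05, and AT1G28610 among the least, with 1.60 and 0.51.

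The replicate letter is a contrast that the rule did not use, although the demand that light and dark arrays do not overlap limits it. In limma with the 3 groups and the letter, 0 of 94 members passed in either direction, beside 0% of all probe sets higher in B and 0.00879% lower. At an unadjusted p under 0.05, 3 members were higher in B and 19 lower, where 809 and 1235 of 22746 probe sets were. The median difference, B minus A, was -0.16 over the members and -0.03 over all probe sets. In darkness B was above A in 22 of 94 members, in light at low CO2 in 34 and in light at normal CO2 in 36. How often B was above A over all probe sets was not counted, so nothing is read from these counts.

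**Figure D5:**
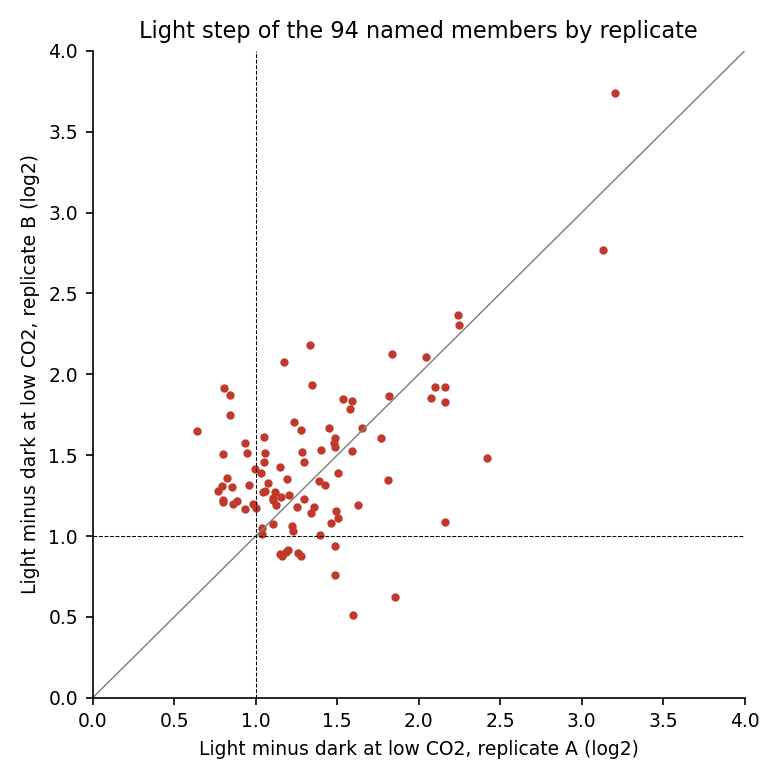
Light step of the 94 named members in replicate A (horizontal axis, log2) and replicate B (vertical axis, log2). Each point is 1 gene, the grey line marks equal values and dashed lines mark 1. In 64 genes the step is at least 1 in both replicates, and AT4G12830 has the largest value in B, 3.74.

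At the edge of the rule, AT5G27930 and AT1G19740 had light steps of 1.01 and 1.01, while AGL87 and AT1G51110 stayed outside with 0.999 and 0.996. AT5G27930 read 47.2 and 50.2 in darkness, 87.5 and 126 in light at low CO2 and 103.4 and 67.2 at normal CO2, so its light groups overlapped. AGL87 read 23.8 and 29.5, then 61.2 and 59.4, then 74.6 and 66.1, and AT1G51110 read 208.4 and 227.2, then 423.1 and 460.3, then 465.9 and 493.4. In both, the normal CO2 arrays were the highest. AT1G51110 has a second probe set with a light step of 0.80. For the CO2 step, AT4G16146 and AT1G75460 were inside at -0.49 and -0.48, and AT4G34950 and AT3G52740 outside at 0.505 and -0.51. AT4G16146 read 28.3 and 36.7 in darkness, 102.8 and 93.3 in light at low CO2 and 44.7 and 101.4 at normal CO2, so that replicate A alone was low at normal CO2. AT3G52740, which encodes BIC1, an inhibitor of cryptochromes, read 15 and 5.9, then 80.6 and 75.8, then 68.3 and 40.1. AT4G34950 read 151 and 357, then 469.8 and 655.7, then 591.9 and 1055.2, with replicate B above A in every group. For intensity, AT3G26590 and AT1G28610 were inside with means of 51.4 and 51.55, and GLR2.7 and AT1G32780 outside with 46.55 and 42.3. AT3G26590 read 20.2 and 14.1 in darkness, 55.4 and 47.4 in light at low CO2 and 36.2 and 33.4 at normal CO2, with the groups in 3 separate ranges. GLR2.7, a glutamate receptor-like gene, read 18.5 and 14.8, then 49.9 and 43.2, then 29.4 and 37, and its groups were likewise apart. AT1G32780 read 16 and 9.3, then 53.3 and 31.3, then 40.5 and 40.2, and its light groups overlapped. No gap in the values separates members from genes just outside.

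Lists of genes known for their response to light were named on the array in small part. Counts of members cover the named genes alone, since 83 of the probe sets that met the rule have no symbol. Of 26 light signalling genes 3 had a named probe set and 0 were named members. Limma called 2 of these higher in the light step, beside 0.849% of all probe sets: AT3G52740 (adjusted p = 0.0446) and AT3G44450 (adjusted p = 0.0142), which encode the BIC proteins. Neither was called in the light step without either normal CO2 array, and AT3G52740 was dim in darkness, at 15 and 5.9. HYH, the other gene measured, had a light step of 0.74 (adjusted p = 0.332), with 0.10 in A and 1.38 in B. Its CO2 step was -1.05 (adjusted p = 0.0827). AT3G44450 rose again at normal CO2, by 1.26 (adjusted p = 0.0174). GI, the single clock gene measured of 18, had a light step of 2.18 (adjusted p = 0.0621) and a CO2 step of -0.68 (adjusted p = 0.312). Of 25 chlorophyll and haem synthesis genes, 8 were measured, 0 were members and 0 passed in the light step. Their median light step was -0.12, and 3 of them, GSA1, HEME2 and CHLI2, rose in the CO2 step, by 1.01, 1.02 and 1.09 (adjusted p = 0.0148, 0.0102 and 0.0126), beside 8.4% of all probe sets called higher. Without either of the normal CO2 arrays limma called 0 probe sets in the CO2 step, these included.

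Photoprotection, carotenoid synthesis, photosynthetic electron transport, photorespiration and flavonoid synthesis had 3, 2, 3, 3 and 3 genes measured, with 0 members and 0 calls in the light step. Their median light steps were 0.34, 0.58, 0.55, 0.36 and 0.22. LIL3:1, which anchors enzymes of chlorophyll synthesis, came nearest of the photoprotection list with 0.83 (adjusted p = 0.103), and LYC, lycopene beta-cyclase, had 0.84 (adjusted p = 0.0945). In the CO2 step the flavonoid genes DFR and UGT78D1 rose, by 2.21 and 1.76 (adjusted p = 0.0265 and 0.0402), beside the same 8.4%, and neither was called without either normal CO2 array. Lists of photoreceptors, CONSTANS-like factors, photosystem repair proteases and dark-raised genes had 0 genes measured under a single name and were not assessed.

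Members lay on all 5 nuclear chromosomes with no pair directly beside each other. In the order of protein-coding genes, the closest pair was AT5G02830 and AT5G02940 with 10 genes between them, followed by AT1G76960 and AT1G77090 with 11. Members without a gene name, or with several, had a light step of 1.001 to 3.09 with a median of 1.31, close to the range of the named genes. Their CO2 steps had a median of -0.08.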

How the data were processed

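The authors deposited a linear intensity for each probe set of each array, made with MAS5, per the submitters' processing notes. No version or scaling target is named in the sources used here, and detection calls were not used here. The mean intensity trimmed by 2% at each end was 100.01 on each array, so no scaling was added. The 64 control probe sets were left out. Genes were named from the platform annotation: 13513 of the 22746 probe sets have 1 symbol, 503 several and 8730 none, and 13436 single names matched the TAIR10.1 gene table by Entrez ID.

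The deposited values were transformed to log2(intensity + 7.3), which understates changes of dim probe sets. Membership and counts were computed in Python 3.11.15. One model of 3 group means over 6 arrays was fitted with limma 3.58.1 in R 4.3.3 (eBayes with a mean-variance trend, 3 residual degrees of freedom), with Benjamini-Hochberg adjustment over all 22746 probe sets and a threshold of 0.05. All adjusted p-values come from it. Each p-value sets a group difference against the spread between arrays within groups, moderated by the trend over all probe sets.

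Members, families and lists were chosen with earlier results of these data known. Values in every array were given for the 12 members with the largest light step, the 6 brightest, those on lists and those nearest each limit. Genes that stand for a family or role were added after their names were seen. No promoter or protein sequences were used here.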

Additional observations from a re-analysis of the deposited data

How the results depend on the processing

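The 94 named members became 97 with a pseudocount of 1, of which 89 were shared, 57 with a pseudocount of 32 (51 shared), 80 with a common median for the arrays (77 shared) and 90 after quantile normalization (88 shared). With a CO2 limit of 0.25 there were 46, with a limit of 1 there were 144, and 46 met both limits within each letter, the paired form of the rule. Leaving out 1 array gave 83 to 120 members, of which 64 to 89 were shared. The lowest light step among the 94 fell to 0.66 with a pseudocount of 32. Letters A and B share no stated origin across groups. The differences B minus A correlated across probe sets at 0.0153 between the light groups. Between darkness and light the values were 0.307 at low CO2 and 0.159 at normal CO2. With the letter as a block in limma, 69 members were called in the light step (475 of all probe sets, against 237) and 1 in the CO2 step. The counts of members called in the light step were 46 as reported, 28 with a pseudocount of 32 and 77 after a filter at intensity 50, and 0 to 14 when 1 array was left out. Over all probe sets they were 368 with a pseudocount of 1, 145 with 32, 678 with the filter and 0 to 99 with an array left out. Leaving out either normal CO2 array left 0 calls in the light and CO2 steps. In light at normal CO2 against darkness, left-out arrays gave 19 to 78 members and 576 to 4695 probe sets. In the CO2 step they gave 0 to 0 members and 0 to 2744 probe sets, and the filter gave 1 member. Calls for the letter over all probe sets numbered 2 as reported, 5 with a pseudocount of 1, 1 with 32 and 1 after quantile normalization. The cause of these shifts was not tested, beyond the fewer arrays or probe sets.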
